A study of Mus musculus with 6 samples.

Results

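The subunits of NF-κB and the genes that set and end its activity were followed in mouse colon tumor cells with and without a stable knock-down of HIF-1α. They were 10 genes, found by symbol among the 22880 genes of the deposited table. Nfkb1, Nfkb2, Rel, Rela and Relb encode the subunits. Nfkbia and Nfkbie encode inhibitors, Tnfaip3 encodes a ubiquitin-editing brake, and Peli1 and Traf6 encode ubiquitin ligases. All 10 passed a filter on low reads that left 12014 genes, and their coordinates are given on GRCm38.

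MC-38 is a colon carcinoma line of C57BL/6 mice, and the GFP-labelled line was grown as an orthotopic tumor in the wall of the cecum of C57BL/6J mice. Cells of both groups had been transduced with the lentiviral vector pLKO.1-puro and had not been passaged in vivo, and the groups were Mock (3 libraries) and HIF-1α-KD (3 libraries). Living GFP+ cells without CD45, a leukocyte marker, and without CD31, an endothelial marker, were sorted from the tumors, and their polyadenylated RNA was sequenced. The knock-down was carried by the injected cells alone, so the host tissue kept its Hif1a. Whether the HIF-1α-KD line was 1 clone, how old the mice were, when the sorted tumors were taken and whether a library came from 1 tumor are not given in the sources used here. The p-values therefore measure the spread between these libraries, which may be technical.

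NF-κB proteins are dimers that inhibitors of the IκB family hold in the cytoplasm. Receptors for cytokines and microbial products activate an IκB kinase complex through ubiquitin ligases such as TRAF6, the inhibitors are destroyed, and dimers such as RELA with the NFKB1 product enter the nucleus. A slower, noncanonical branch processes NFKB2 and releases dimers with RELB. Active NF-κB induces several of its own brakes, among them Nfkbia, Nfkbie and Tnfaip3, so that these genes are used as readouts of the pathway as well as being parts of it. In colon tumors the pathway links inflammation with survival of tumor cells, and hypoxia and HIF-1α are known to act on it and to be acted on by it.

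The start sites of 3 members are shown because they hold the letters that the NF-κB and HIF proteins are known to bind, in genes on either side of the comparison. Each window is the 250 bases before the start site of the RefSeq transcript (GRCm38.p6), written 5′ to 3′ on the strand of the gene. In Nfkbia and Nfkbie the capitals mark a match to the κB consensus, and in Traf6 they mark the hypoxia response core (ACGTG or GCGTG), both searched on both strands.
Nfkbia, chr12:55492648-55492897, minus strand: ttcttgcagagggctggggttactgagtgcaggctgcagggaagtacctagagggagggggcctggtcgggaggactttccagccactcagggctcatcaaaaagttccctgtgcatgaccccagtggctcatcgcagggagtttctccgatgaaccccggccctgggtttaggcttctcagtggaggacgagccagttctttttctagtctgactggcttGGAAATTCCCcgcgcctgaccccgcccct
Nfkbie, chr17:45555450-45555699, plus strand: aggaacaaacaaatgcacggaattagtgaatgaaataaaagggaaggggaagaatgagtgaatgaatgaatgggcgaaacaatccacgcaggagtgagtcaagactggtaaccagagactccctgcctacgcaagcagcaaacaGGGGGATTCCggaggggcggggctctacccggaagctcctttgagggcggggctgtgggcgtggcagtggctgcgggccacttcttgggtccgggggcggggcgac
Traf6, chr2:101678170-101678419, plus strand: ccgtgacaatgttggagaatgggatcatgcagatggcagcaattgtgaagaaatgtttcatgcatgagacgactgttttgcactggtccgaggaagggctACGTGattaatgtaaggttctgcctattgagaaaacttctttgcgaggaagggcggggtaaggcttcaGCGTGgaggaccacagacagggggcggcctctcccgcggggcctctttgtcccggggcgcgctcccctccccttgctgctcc
The κB match lay 29 to 20 bases before the start of Nfkbia and 106 to 97 bases before the start of Nfkbie. The window of Nfkbie also held the hypoxia core 166 to 162 and 48 to 44 bases before the start, whereas that of Nfkbia held none. The cores of Traf6 lay 150 to 146 and 82 to 78 bases before the start, and its window held no κB match. Windows were found for 8 of the 10 members (11 windows), and Nfkb1 and Relb had no entry. A κB match stood in 7 of the 11 windows, against 3.90% of all 32851 windows of the same length, and these belonged to 5 members, Nfkb2, Rel, Nfkbia, Nfkbie and Tnfaip3. It read GGGACTTTCC in a window of Nfkb2, 225 to 216 bases before the start, and GGGAAATCCC in that of Rel, 92 to 83 bases before the start. In Tnfaip3 a match read GGGACACCCC, 125 to 116 bases before the start. The hypoxia core stood in 8 of the 11 windows, of 6 members, and in 38.6% of all windows, and no κB match shared bases with a core. The share of windows with a κB match is not independent of the choice of members, which include genes that NF-κB is known to induce. Windows of Nfkb2 also overlap each other in part. A match describes the letters of the window and was not tested as a binding site.

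The libraries held between 19845838 and 30809238 reads on genes, and HIF-1α-KD library 1 was the deepest. Normalized counts of Hif1a were 6914, 5424 and 4945 in Mock against 697.3, 3142 and 1928 in HIF-1α-KD libraries. The log2 difference was -1.82 (SE 0.46, adjusted p = 0.219). Values are listed in the order of libraries 1, 2 and 3 of each group here and below. The lowest Hif1a level was in HIF-1α-KD library 1, and the groups did not overlap. Without HIF-1α-KD library 1 the log2 difference of Hif1a was -1.21, and without HIF-1α-KD library 2 it was -2.30. Summed FPKM (a level corrected for the length of the gene and the depth of the library) of 14 leukocyte markers was 142 to 156 in Mock and 94.6 to 467 in HIF-1α-KD libraries, with the 467 in HIF-1α-KD library 3. Lyz2 was the largest part of the leukocyte sum, with 294.6 FPKM in HIF-1α-KD library 3. The markers Cd3e and Ly6g stayed under 1 FPKM in all libraries, and 12 of the 14 reached it in at least 1 library. The 7 endothelial markers summed to 9.59 to 11.2 FPKM in Mock and 8.81 to 10.2 in HIF-1α-KD libraries, with Kdr, Tek, Tie1 and Emcn under 1 FPKM. Of these markers Cdh5 passed an unadjusted limma p of 0.05 on the lower side, without overlap (422.3, 532.1 and 568.9 normalized counts in Mock against 285.5, 395.7 and 197.5, log2 difference -0.84, adjusted p = 0.294). The 6 fibroblast markers, each of which reached 1 FPKM in at least 1 library, summed to 543 to 967 in Mock and 414 to 700.3 in HIF-1α-KD libraries. Dcn made up most of that sum in each library (482.1, 466.5 and 905.9 FPKM in Mock against 490.3, 619.9 and 344.9). Among the fibroblast markers Pdgfrb was higher at the unadjusted limma threshold (log2 difference 0.59, adjusted p = 0.387), with groups that overlapped. The 9 epithelial markers summed to 1.59, 1.48 and 15.4 FPKM in Mock and 1.71 to 3.29 in HIF-1α-KD libraries. Epcam, Vil1, Cdx2 and Cldn7 of these stayed under 1 FPKM, and the other 5 reached it in Mock library 3 alone. In such bulk samples fewer cells of a type and less RNA per cell cannot be told apart, and the part of other cells in the values below was not tested. Without HIF-1α-KD library 3 the leukocyte sums of the HIF-1α-KD libraries were 94.6 and 109, still outside the Mock range.

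Among the inhibitors, Nfkbie was higher and Nfkbia lower in HIF-1α-KD cells, and the ligase gene Peli1 was lower. Relb was the subunit gene with the greatest log2 difference, on the higher side. None of the 10 passed an adjusted p of 0.05 in the limma test, a threshold that 0.391% of the 12014 genes passed (0.00832% higher and 0.383% lower). At an unadjusted p under 0.05, 4 of 10 members were called (Nfkbie and Relb higher, Nfkbia and Peli1 lower), a share of 40% against 12.7% of all genes (7.04% higher and 5.69% lower). The members were chosen with earlier results of these data known, so that share is not independent support. The study had already reported Nfkbie as higher and Peli1 as lower in these HIF-1α-KD cells. edgeR's quasi-likelihood test and DESeq2 called 0 of the members at the adjusted threshold too. For 3 of 10 members, Nfkbie, Relb and Peli1, the values of the groups stood apart, as they did for 19.2% of all genes (10.4% higher and 8.75% lower). The median log2 difference was 0.05 over the members and 0.02 over all genes, with 6 members above 0 and 4 below.

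**Figure D1:**
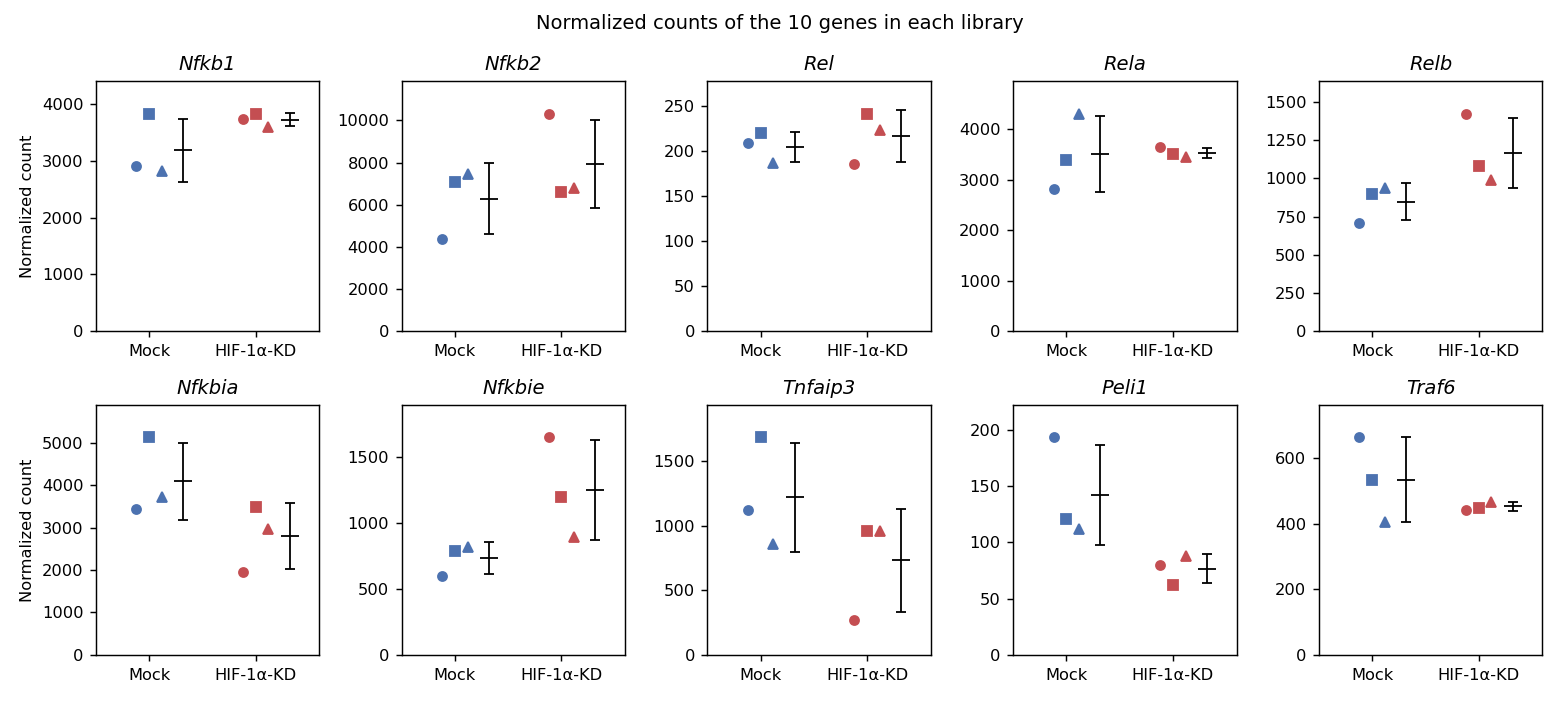
Normalized count (y axis) of each of the 10 genes in the 3 Mock and 3 HIF-1α-KD libraries, 1 panel a gene, with circle, square and triangle for replicates 1, 2 and 3 and the group mean ± SD beside them. The groups stand apart for Nfkbie, Relb and Peli1 and overlap for the other 7, and HIF-1α-KD library 1 is the highest or lowest of the 6 for 6 genes.

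Nfkbie (ENSMUSG00000023947, chr17:45555703-45563169, plus strand) encodes IκBε, an inhibitor known to answer NF-κB with a delay and to hold RELA and REL dimers. The normalized counts of Nfkbie were 598.3, 786.6 and 819.0 in Mock against 1649, 1200 and 895.2 in HIF-1α-KD libraries (735 ± 119 and 1248 ± 379, SD, n = 3 each). Every HIF-1α-KD library lay above every Mock library, but HIF-1α-KD library 3 exceeded the highest Mock library by little. The fitted difference was 1.66-fold (95% interval 1.14 to 2.42), or 0.73 on the log2 scale (SE 0.24, adjusted p = 0.296, range of adjusted p over the alternatives 0.0976 to 0.594). Without HIF-1α-KD library 3, in which leukocyte markers were highest, the log2 difference was 0.95 (adjusted p = 0.177). Without HIF-1α-KD library 1 it was 0.51, and without Mock library 1 it was 0.59, where the unadjusted call was lost.

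Nfkbia (ENSMUSG00000021025, chr12:55489410-55492647, minus strand) encodes IκBα, the inhibitor that NF-κB induces fastest. Counts were 3433, 5127 and 3723 in Mock against 1959, 3483 and 2967 in HIF-1α-KD libraries (4094 ± 906 and 2803 ± 775, SD, n = 3 each). HIF-1α-KD libraries 1 and 3 lay below all Mock libraries, whereas HIF-1α-KD library 2 lay just above Mock library 1, so the groups overlapped. The log2 difference was -0.56 (SE 0.24, adjusted p = 0.384), a level 1.48-fold lower with an interval of -1.11 to -0.02 on the log2 scale. Between -0.74 and -0.33 remained when 1 library was left out, and the unadjusted call was lost without Mock library 2 (-0.39), Mock library 3 (-0.62), HIF-1α-KD library 1 (-0.33) or HIF-1α-KD library 3 (-0.63).

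The unadjusted calls of the inhibitor genes were thus of opposite sign, and neither passed the adjusted threshold. The FPKM of Nfkbie divided by that of Nfkbia was 0.114, 0.10 and 0.144 in Mock against 0.550, 0.225 and 0.197 in HIF-1α-KD libraries. The ratio was above every Mock value in every HIF-1α-KD library, with its highest value in HIF-1α-KD library 1. It stayed under 1 in all 6 libraries, so Nfkbia had the higher FPKM of the pair in each. Their summed FPKM over that of the 5 subunits was 0.625, 0.664 and 0.492 in Mock against 0.286, 0.503 and 0.426 in HIF-1α-KD libraries, and these groups overlapped.

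Tnfaip3 (ENSMUSG00000019850, chr10:19000910-19015657, minus strand) encodes the ubiquitin-editing protein that takes signaling ubiquitin chains off upstream adaptors. Its counts were 1123, 1687 and 858.8 in Mock against 274.3, 961.7 and 961.1 in HIF-1α-KD libraries. HIF-1α-KD library 1 stood far below the other 5, and the other two HIF-1α-KD libraries lay between Mock libraries 3 and 1. The log2 difference of -0.89 (SE 0.47, interval -1.97 to 0.18, adjusted p = 0.474) did not pass either threshold. It came to -0.29 without HIF-1α-KD library 1, and it passed the unadjusted threshold without HIF-1α-KD library 2 or without HIF-1α-KD library 3 (-1.19 in both). Of the 10 members, Tnfaip3 had the greatest spread over the 6 libraries, 6.15-fold from lowest to highest.

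Peli1 (ENSMUSG00000020134, chr11:21091291-21150323, plus strand) encodes Pellino-1, a ubiquitin ligase that works beside TRAF6 on receptor complexes. Counts were 193.3, 120.6 and 112.3 in Mock against 79.63, 62.35 and 87.79 in HIF-1α-KD libraries (142 ± 44.6 and 76.6 ± 13.0, SD, n = 3 each). All HIF-1α-KD libraries lay below all Mock libraries, and Mock library 1 stood above the other 5. The level was 1.81-fold lower, a log2 difference of -0.85 (SE 0.30, interval -1.54 to -0.17, adjusted p = 0.32). It was -0.61 without Mock library 1 and -0.71 without HIF-1α-KD library 2, where the unadjusted call was lost. Without HIF-1α-KD library 3 it was -0.96. Only 52 to 157 reads per library stand behind these values. The annotation places 2610024D14Rik on the same strand over Peli1, and how reads were shared between them was not tested.

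Traf6 (ENSMUSG00000027164, chr2:101678429-101701669, plus strand) encodes the ligase that passes signals of toll-like and interleukin receptors to the IκB kinases. Its counts were 663.5, 534.0 and 405.9 in Mock against 443.2, 448.5 and 467.8 in HIF-1α-KD libraries. The HIF-1α-KD libraries were close together and lay inside the Mock range. Traf6 had a log2 difference of -0.21 (SE 0.21, interval -0.68 to 0.26, adjusted p = 0.711), which came to -0.04 without Mock library 1 and to -0.39 without Mock library 3. The FPKM of Peli1 over that of Traf6 was 0.291, 0.226 and 0.277 in Mock against 0.180, 0.139 and 0.188 in HIF-1α-KD libraries, so this ratio was lower in every HIF-1α-KD library.

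**Figure D2:**
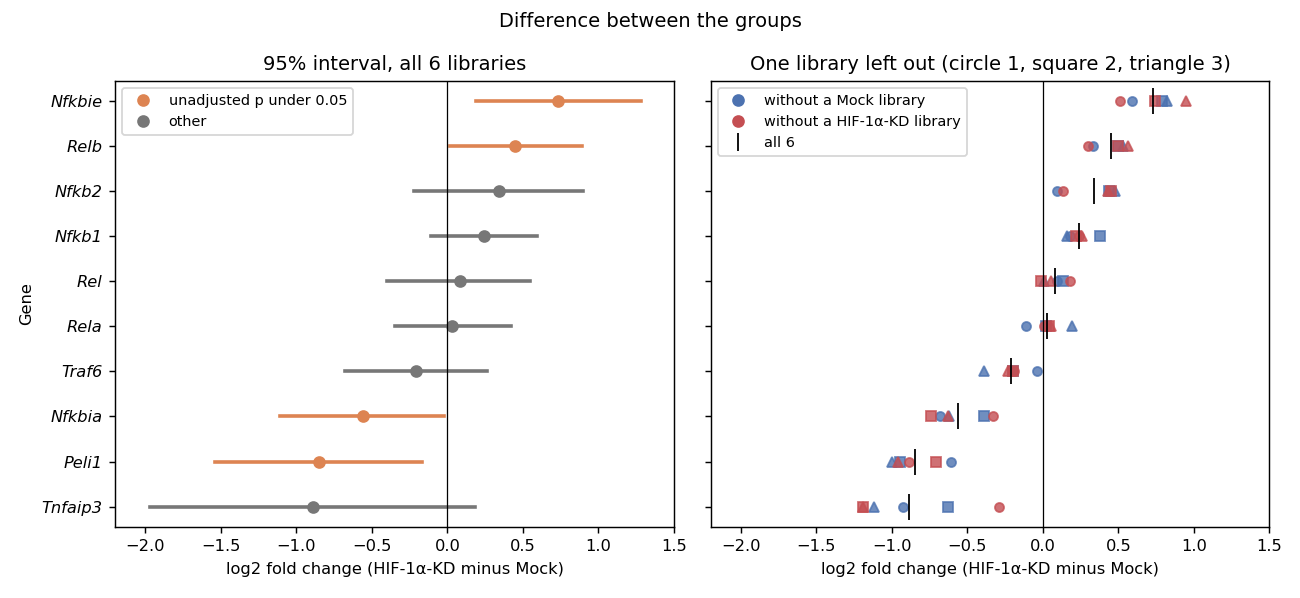
Log2 difference of HIF-1α-KD minus Mock (x axis) for the 10 genes, with 95% intervals from limma on the left and, on the right, the value with each library left out (circle, square and triangle for replicates 1, 2 and 3). Intervals of Nfkbie, Relb, Nfkbia and Peli1 do not reach 0, and Tnfaip3 comes to -0.29 without HIF-1α-KD library 1.

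Of the subunits, Relb (ENSMUSG00000002983, chr7:19606217-19629438, minus strand), the partner of the processed NFKB2 product in the noncanonical branch, differed most. Counts were 707.9, 900.5 and 934.9 in Mock against 1423, 1083 and 989.9 in HIF-1α-KD libraries (848 ± 122 and 1165 ± 228, SD, n = 3 each). All HIF-1α-KD libraries were above all Mock libraries, with HIF-1α-KD library 3 nearest to them. The difference was 1.37-fold (95% interval 1.01 to 1.85), or 0.45 on the log2 scale (SE 0.19, adjusted p = 0.384). Its direction was kept in each leave-one-out fit (0.30 to 0.56), but the unadjusted call was lost without Mock library 1 (0.33), Mock library 2 (0.50), HIF-1α-KD library 1 (0.30) or HIF-1α-KD library 2 (0.50). It was lost with TMM scaling too, at a log2 difference of 0.43.

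Nfkb2 (ENSMUSG00000025225, chr19:46304320-46312385, plus strand), the precursor of that branch, had counts of 4379, 7062 and 7445 in Mock against 10320, 6618 and 6799 in HIF-1α-KD libraries. Mock library 1 was low and HIF-1α-KD library 1 was high, while the other 4 libraries lay between 6618 and 7445. The log2 difference was 0.34 (SE 0.25, interval -0.22 to 0.90, adjusted p = 0.607), and it was 0.09 without Mock library 1 and 0.13 without HIF-1α-KD library 1. Psd and AC114539.1 overlap Nfkb2 on the other strand. Psd had 415 reads over the 6 libraries against 41335 of Nfkb2, no reads of AC114539.1 were analysed here, and how reads were shared was not tested.

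Nfkb1 (ENSMUSG00000028163, chr3:135584655-135691547, minus strand), the precursor of the canonical branch, had counts of 2905, 3827 and 2825 in Mock against 3739, 3832 and 3602 in HIF-1α-KD libraries. Mock library 2 reached the level of HIF-1α-KD cells, and the other two Mock libraries were lower. On the log2 scale the difference was 0.24 (SE 0.15, interval -0.11 to 0.59, adjusted p = 0.556). Without Mock library 2 it was 0.38 and passed the unadjusted threshold. Without Mock library 1 it was 0.18 and without Mock library 3 it was 0.16, and neither passed. Gm43430 overlaps Nfkb1 on the same strand, and how reads were shared between them was not tested.

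Rela (ENSMUSG00000024927, chr19:5637483-5648130, plus strand), which carries the main transactivation domain of the canonical dimer, had counts of 2818, 3386 and 4312 in Mock against 3643, 3507 and 3454 in HIF-1α-KD libraries. The HIF-1α-KD libraries lay inside the Mock range. The log2 difference was 0.03 (SE 0.17, interval -0.35 to 0.42, adjusted p = 0.949), and its sign turned in edgeR, in DESeq2 and without Mock library 1. The interval leaves room for changes of up to 0.42 in size on the log2 scale.

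Rel (ENSMUSG00000020275, chr11:23736847-23770970, minus strand), a subunit known mainly from lymphoid cells, had the lowest counts among the subunits. They were 208.0, 219.1 and 186.0 in Mock against 185.0, 241.0 and 222.9 in HIF-1α-KD libraries, with both the lowest and the highest library in the HIF-1α-KD group. Rel differed by 0.08 on the log2 scale (SE 0.21, interval -0.40 to 0.55, adjusted p = 0.908), with 0.18 without HIF-1α-KD library 1, 0.01 without Mock library 3 and -0.01 without HIF-1α-KD library 2.

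Levels between genes were compared as FPKM, which is per length. In the Mock libraries Nfkbia had the highest mean FPKM (104), followed by Nfkb2 (80.5), Rela (51.4) and Nfkb1 (47.1). Tnfaip3 (17.7), Relb (16.3) and Nfkbie (12.1) formed a middle group, and Traf6 (7.21), Peli1 (1.91) and Rel (1.09) were below. Neighbours in this order without overlap of their 3 values were Nfkb1 over Tnfaip3, Nfkbie over Traf6, Traf6 over Peli1 and Peli1 over Rel, and the other neighbours overlapped.

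In the HIF-1α-KD libraries the order of mean FPKM was Nfkb2 (105), Nfkbia (73.9), Nfkb1 (57.0), Rela (53.9), Relb (23.2), Nfkbie (21.3), Tnfaip3 (11.03), Traf6 (6.36), Rel (1.20) and Peli1 (1.07). Nfkb1 over Rela, Rela over Relb, Nfkbie over Tnfaip3 and Traf6 over Rel did not overlap. Nfkbie thus stood apart above Tnfaip3 in HIF-1α-KD cells (15.59 to 27.50 against 3.98 to 14.57 FPKM), while in Mock cells Tnfaip3 reached from 12.10 to 25.28 and Nfkbie from 9.64 to 13.54 FPKM.

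**Figure D3:**
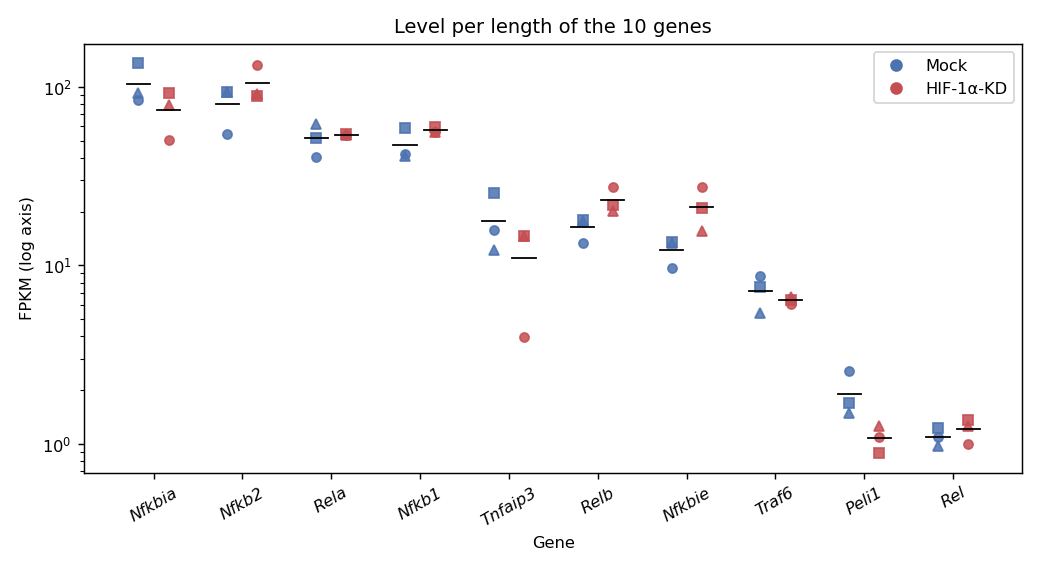
FPKM of the 10 genes (y axis, log scale) in the Mock and HIF-1α-KD libraries, each point 1 library and each line a group mean, with genes ordered by their Mock mean. Nfkbia, Nfkb2, Rela and Nfkb1 are at the top, and Peli1 and Rel are at the bottom with means of 1.07 to 1.91 FPKM.

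Within the subunits, Nfkb2, Rela and Nfkb1 made up most of the FPKM, and Rel less than 0.72% in each library. The share from Relb was 8.78, 8.05 and 8.20% in Mock against 10.2, 9.69 and 9.02% in the HIF-1α-KD libraries, without overlap. The FPKM of Relb over that of Rela was 0.329, 0.348 and 0.284 in Mock against 0.511, 0.404 and 0.375 in HIF-1α-KD libraries. Relb was therefore higher relative to Rela in every HIF-1α-KD library. The corresponding ratio of the precursors, Nfkb2 over Nfkb1, overlapped between groups (1.73 ± 0.501 and 1.84 ± 0.482, SD, n = 3 each). These ratios use the counts of the same genes described above and are not further evidence.

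**Figure D4:**
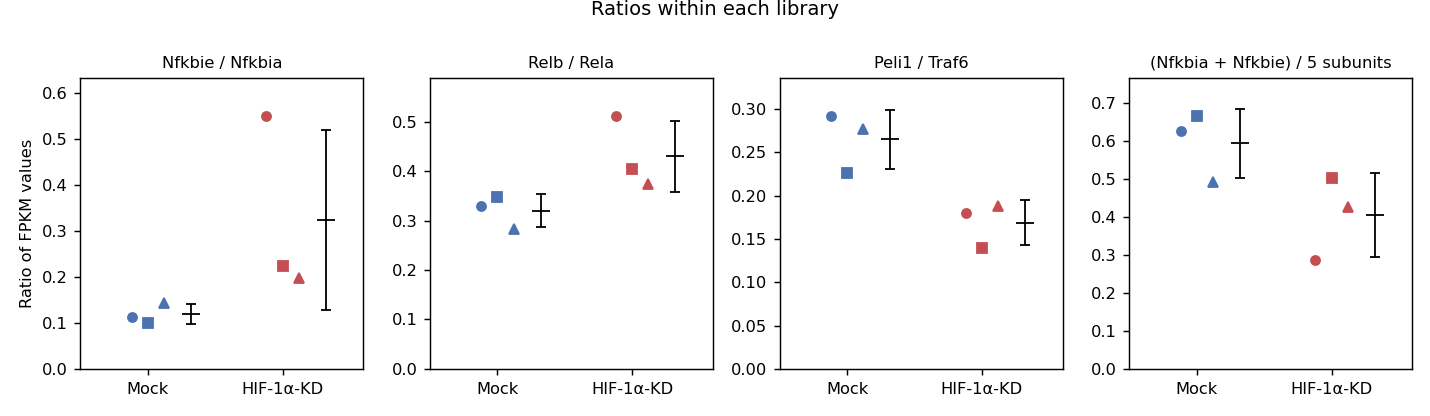
FPKM ratios of members (y axis, 1 panel a ratio) in the 3 Mock and 3 HIF-1α-KD libraries, with circle, square and triangle for replicates 1, 2 and 3 and the group mean ± SD beside them. Nfkbie over Nfkbia, Relb over Rela and Peli1 over Traf6 stand apart between the groups, and both inhibitors over the 5 subunits do not.

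The extremes of the members were counted per library, and the same count over all genes was not made. Over the whole table, Mock library 1 and HIF-1α-KD library 1 differed most from their replicates. Chi-square per degree of freedom was 86.5 to 93.0 for the pairs with Mock library 1, against 40.5 for the other Mock pair. It was 59.6 to 84.2 for the pairs with HIF-1α-KD library 1, against 29.1 for the other pair. Mock library 1 was the extreme of the 6 for 6 members, the highest for Peli1 and Traf6 and the lowest for Nfkb2, Rela, Relb and Nfkbie. HIF-1α-KD library 1, which had the lowest Hif1a and the most reads, was also the extreme for 6 members, the highest for Nfkb2, Relb and Nfkbie and the lowest for Rel, Nfkbia and Tnfaip3. HIF-1α-KD library 3, the one with the high leukocyte markers, was the extreme for 0 members.

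Gene patterns most like Nfkbie over the 6 libraries were found by the root mean square difference of log2 values after the mean of each gene was taken off. They were Eml1 (0.0799), Efnb1 (0.0949) and Ccne1 (0.108). The nearest member was Relb (0.179), at rank 54 among the genes tested. For Peli1 the nearest were Nsun3 (0.0968), Mtrf1 (0.116) and Pdp1 (0.13), and the nearest member was Traf6 (0.366), at rank 811.

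Around the members, 7 lists of pathway genes held 122 genes, of which 107 were tested. At an unadjusted limma p under 0.05, 8 were higher and 6 lower, 13.1% of those tested against 12.7% of all genes, and the median log2 difference was -0.01. Only 2 of the 107 tested passed the adjusted threshold, both on the lower side. Of all genes, 0.391% passed it (0.00832% higher and 0.383% lower). The 2 pathway genes are ones that NF-κB is known to induce, and the lists were drawn up with earlier results of these data known. Ier3, an early response gene that protects from cell death, had counts of 4406, 5029 and 4357 in Mock against 690.1, 1433 and 1320 in HIF-1α-KD libraries, so that the groups stood far apart. It fell by 2.07 on the log2 scale (SE 0.26, adjusted p = 0.0242). Sdc4, a cell surface proteoglycan, had counts of 6778, 5891 and 7705 in Mock against 3662, 3336 and 3796 in HIF-1α-KD libraries. It fell by 0.91 on the log2 scale (SE 0.15, adjusted p = 0.0447). With 1 library left out, 0 to 1 pathway genes passed the adjusted limma threshold, and 1 passed only without HIF-1α-KD library 1. edgeR called 1 pathway gene at that threshold, DESeq2 called 5, and limma with a replicate block called 0.

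Of the 29 tested genes in that list of 38 induced genes, 2 were higher and 4 lower at the unadjusted threshold, a share of 20.7% against 12.7% of all genes (7.04% higher and 5.69% lower), with a median of -0.06. Ptgs2, the inducible cyclooxygenase, had a log2 difference of -0.95 (SE 0.21, adjusted p = 0.169). The other 3 are named after their values were seen. They were Nos2, the inducible nitric oxide synthase (-1.59), Icam1, an adhesion molecule (1.40), and the protease gene Mmp9 (1.51), whose groups overlapped. Induced genes thus lay on both sides.

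Among the 8 other IκB proteins and cofactors, 0 were called at the unadjusted limma threshold (0 at the adjusted one, median 0.01). Counts of Nfkbiz, which encodes the inducible nuclear IκBζ, were 397.6, 688.1 and 417.9 in Mock against 88.47, 449.6 and 497.9 in HIF-1α-KD libraries, again with HIF-1α-KD library 1 lowest (log2 difference -0.84). Bcl3, a nuclear partner of the NFKB1 and NFKB2 products, had a log2 difference of 0.43, and Nkiras2, a small GTPase that binds IκB proteins, one of -0.19. In the IκB kinase complex and its activating kinases, 0 of 12 were called at the unadjusted limma threshold, with a median of 0.11. Map3k3 had a log2 difference of 0.37, Tab3 of -0.35 and the kinase gene Chuk of -0.34, and 95% intervals of all 3 included 0.

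In each of the 4 lists that follow, 12.5 to 16.7% of the tested genes were called at the unadjusted limma threshold, near the 12.7% of all genes (7.04% higher and 5.69% lower). On the TRAF6 side, 2 of 15 tested adaptors and partners were lower at the unadjusted limma threshold and 0 were higher (18 listed, median -0.04). Traf3ip2, the adaptor of the interleukin 17 receptor, had a log2 difference of -0.60, and Sqstm1, the scaffold protein of TRAF6 complexes, one of -0.39. Ecsit had a log2 difference of -0.33. On the side of the TNF receptors, 2 of 12 were higher and 0 lower (median -0.02). Traf3, which holds the kinase of the noncanonical branch in check, had counts of 844.5, 1219 and 864.9 in Mock against 1483, 1502 and 1276 in HIF-1α-KD libraries, with no overlap (log2 difference 0.56, SE 0.18, adjusted p = 0.296). Traf5 had a log2 difference of 0.78 and Ube2d3, a ubiquitin-conjugating enzyme, one of -0.36.

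Among 15 other negative regulators, 2 were higher at the unadjusted limma threshold and 0 lower (median 0.08). They were Traf4 (log2 difference 0.61) and N4bp1 (0.35), while the deubiquitinase gene Cyld had a log2 difference of -0.28. Of 16 tested receptors (19 listed, median -0.07), 2 were higher. Il1r1, the signaling receptor of interleukin 1, had counts of 881.4, 989.5 and 748.9 in Mock against 1246, 1421 and 1222 in HIF-1α-KD libraries, without overlap (log2 difference 0.58, adjusted p = 0.253). Tnfrsf1a, the main TNF receptor, had a log2 difference of 0.36, and Ltbr, a receptor of the noncanonical branch, also one of 0.36.

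**Figure D5:**
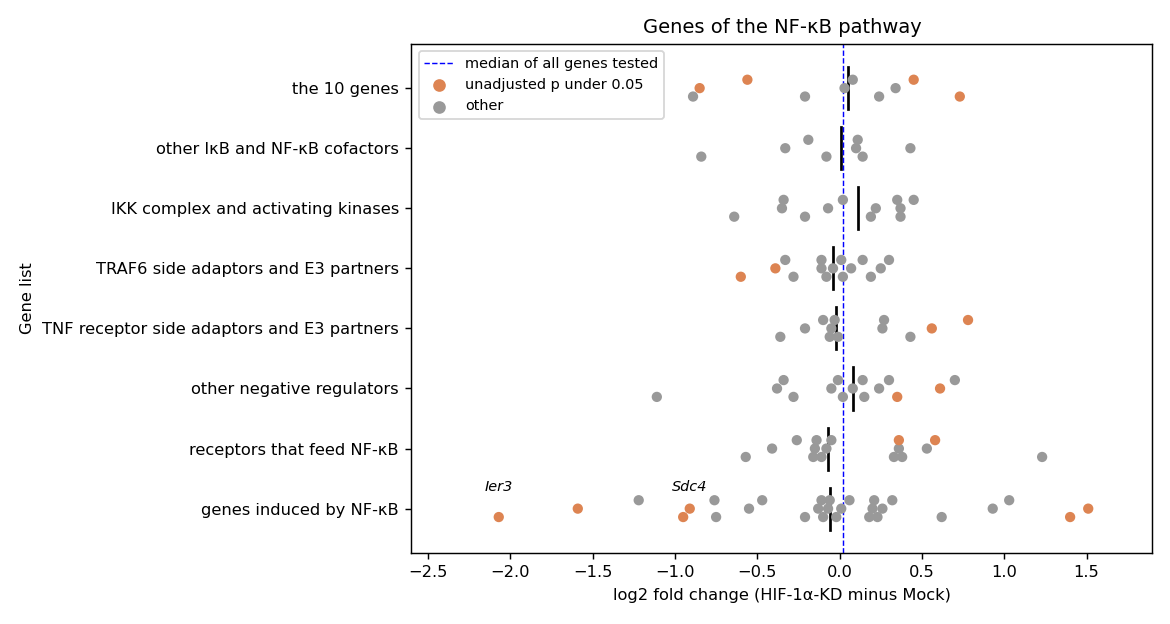
Log2 difference of HIF-1α-KD minus Mock (x axis) for each tested gene of the 10 members and of 7 pathway lists (rows), with orange points for unadjusted limma p under 0.05 and a bar at the median of each list. Medians lie between -0.07 and 0.11, and Ier3 and Sdc4 are the 2 genes that pass the adjusted threshold.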

How the data were processed

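RNA of tumor cells sorted from orthotopic MC-38 tumors was measured in 6 libraries, grouped by the condition in their labels. By the methods of the study, single-end reads of TruSeq stranded libraries were trimmed, aligned with STAR, counted with featureCounts and tested with DESeq2. The processing notes of the samples name GRCm38 and edgeR, whereas the methods name a human build and DESeq2. The strand setting of the counting is not given in the sources used here. The authors deposited normalized counts, a signal in which each count was divided by 1 factor per library. The authors also deposited FPKM values. Deposited columns of the authors' own comparison (log2 ratio, p-value and false discovery rate) were not used.

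Reads were recovered from the normalized counts, and 100% of values up to 300 reads came out whole (within 0.1 read). No other sample's columns were present. Genes were filtered with filterByExpr of edgeR 4.0.16 (by group, minimum count of 10). As the main test, limma 3.58.1 (trend of variance with level) was run on log2(normalized count + 1), two-sided, over 12014 genes with Benjamini-Hochberg adjustment. On this scale the change of low genes is understated. An exact permutation test of 3 against 3 libraries could not give p below 0.1 and was not used. Alternatives were edgeR's quasi-likelihood test and DESeq2 1.42.0 on the recovered reads, TMM scaling, no filter, pseudocounts of 0.1 and 10, a replicate block, and leaving out each library. The fit was tested on simulated data. Replicates differed by more than the sampling noise of reads (chi-square per degree of freedom of 29.1 to 93.0), so none was treated as 1 library deposited again. This does not show that they came from separate tumors. The members, lists and promoter motifs were chosen with earlier results of these data known. By the naming rule, named genes were the members, Hif1a, from each list the up to 3 tested genes with the smallest unadjusted p, and the 3 genes nearest in pattern to Nfkbie and to Peli1. Nos2, Icam1, Mmp9, Cdh5, Pdgfrb, Dcn and Lyz2 fall outside that rule and were named after their values were seen. The same holds for the cell type markers named for an FPKM under 1. Gene models were those of GENCODE for GRCm38, and start site windows were those of RefSeq for GRCm38.p6.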

Additional observations from a re-analysis of the deposited data

How the results depend on the processing

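Of the 10 members, 0 passed the adjusted threshold in limma and in each of the 13 alternatives, edgeR and DESeq2 included, while 4 had an unadjusted limma p under 0.05. The log2 difference turned its sign for Rela, which was -0.01 with edgeR, -0.0011 with DESeq2 and between -0.11 (without Mock library 1) and 0.19 with 1 library left out, and for Rel, which was between -0.01 (without HIF-1α-KD library 2) and 0.18. The other 8 members kept their direction under each alternative. With TMM scaling, which moved the median of all genes from 0.021 to -0.001, 1 member and 5 pathway genes were higher at the unadjusted threshold. Over the fits with 1 library left out, 0 to 2 members were higher and 1 to 2 lower, and 4 to 9 pathway genes were higher and 4 to 9 lower. Of all genes, 479 to 938 were higher and 518 to 714 lower in these fits. At the adjusted threshold these fits called 0 to 1 pathway genes and 0 to 38 of all genes, with 0 of all genes without Mock library 3 or without HIF-1α-KD library 2. edgeR called 1 pathway gene and 47 of all genes at that threshold, and DESeq2 called 5 and 283. The cause of these moves was not tested, except that leaving out a library leaves fewer samples. Deviations of libraries with the same replicate number correlated at -0.139, -0.123 and 0.0228, and those with different numbers at -0.0716 to 0.162. With 3 libraries a group these values cannot show whether the replicate numbers pair the libraries. With the numbers as a replicate block, 0 pathway genes and 0 of all genes passed the adjusted limma threshold, 717 of all genes were higher and 607 lower at the unadjusted one, and 1 member was higher, Nfkbie, while the call of Relb was lost and Tnfaip3 was called lower. Precision is limited by having 3 libraries a group, and depth is low for Peli1, with 52 reads in the lowest library.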
